A study of Mus musculus with 4 samples.

Results

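Open chromatin was compared between day 8 (D8) and day 0 (D0) of beige adipocyte differentiation in im-scWAT cells homozygous for the Jmjd1a HY allele (HY). The sites are the ATAC-seq peaks called on chr1-19 in the HY D0 and HY D8 libraries. There were 76164 peaks at D0 and 47794 at D8, together 123958 of the 239709 peaks of the whole series. A D8 peak that shared no base with a D0 peak was called gained, a D0 peak that shared no base with a D8 peak was called lost, and all others were called kept. A stricter rule asked whether the summit, the position of the highest signal in a peak, fell inside a peak of the other day.

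Both HY libraries carried the Jmjd1a HY/HY genotype, a histidine-to-tyrosine change that abolishes the demethylase activity of the protein. The cells were a culture from the stromal vascular fraction of subcutaneous white fat of 5-week-old mice, immortalised with a retrovirus carrying the SV40 large T antigen and kept by puromycin selection. D0 cells were harvested before differentiation. D8 cells had received 2 days of induction medium with indomethacin, dexamethasone, 3-isobutyl-1-methylxanthine, rosiglitazone, insulin and T3, followed by 6 days with insulin, T3 and rosiglitazone alone. The 2 other libraries of the series, WT D0 and WT D8 (Jmjd1a +/+), came from a separate culture treated in the same way and are used below to show where HY sites recurred or went the other way and, classed alike, for comparison. Each group held 1 library, so no test between groups was possible. All differences are between libraries, and the intervals given (Wilson, 95%) cover counting error only. Nothing in the sources used here says whether the HY culture stands for more than 1 mouse.

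ATAC-seq marks open chromatin because the Tn5 transposase inserts adapters preferentially where DNA is free of nucleosomes. During adipogenesis, C/EBP factors and PPARG open enhancers of lipid storage genes, while AP-1 and TEAD factors occupy many enhancers of proliferating preadipocytes and fibroblasts. JMJD1A, encoded by Kdm3a, removes methyl groups from lysine 9 of histone H3, a modification of closed chromatin. In bulk chromatin, fewer cells of a type and less accessibility per cell cannot be told apart.

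The sequences below show which letters lay under the sites that carried the main difference. They are the 200 bases around the summit on the plus strand of the mouse mm9 assembly. Capitals mark matches on either strand to any of the 11 motifs listed further below. Of the 10 gained sites with the highest -log10 q, 3 held the C/EBP motif. Of these, 2 are printed here with the first of the 10, an intron of Myh10, which held no match. That stretch was a tandem repeat. Shifted by 44 bp it was 97.4% identical to itself, against at most 41.5% at the best shift of any other sequence examined, so the placement of reads there is uncertain. The Cidec and Rxrg sequences lie in promoters that had a peak only at D8.
Myh10 intron, gained, chr11:68546944-68547143: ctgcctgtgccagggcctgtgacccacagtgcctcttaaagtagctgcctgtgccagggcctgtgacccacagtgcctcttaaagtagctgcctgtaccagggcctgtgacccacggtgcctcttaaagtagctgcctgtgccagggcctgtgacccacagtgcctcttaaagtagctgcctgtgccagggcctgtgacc
3930402G23Rik upstream, gained, chr8:10935399-10935598: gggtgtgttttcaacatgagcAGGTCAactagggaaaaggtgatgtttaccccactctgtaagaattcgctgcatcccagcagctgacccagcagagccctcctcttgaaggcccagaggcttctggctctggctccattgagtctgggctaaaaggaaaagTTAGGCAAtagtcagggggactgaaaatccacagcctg
Acer2 intron, gained, chr4:86543429-86543628: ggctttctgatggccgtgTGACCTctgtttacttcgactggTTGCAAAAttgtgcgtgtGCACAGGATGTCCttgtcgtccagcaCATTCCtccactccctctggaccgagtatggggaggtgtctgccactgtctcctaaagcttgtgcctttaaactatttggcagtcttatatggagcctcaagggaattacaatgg
Cidec promoter, gained, chr6:113384914-113385113: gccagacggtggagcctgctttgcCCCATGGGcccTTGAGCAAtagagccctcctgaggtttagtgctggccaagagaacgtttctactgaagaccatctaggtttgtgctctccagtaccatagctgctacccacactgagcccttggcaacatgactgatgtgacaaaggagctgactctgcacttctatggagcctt
Rxrg promoter, gained, chr1:169548220-169548419: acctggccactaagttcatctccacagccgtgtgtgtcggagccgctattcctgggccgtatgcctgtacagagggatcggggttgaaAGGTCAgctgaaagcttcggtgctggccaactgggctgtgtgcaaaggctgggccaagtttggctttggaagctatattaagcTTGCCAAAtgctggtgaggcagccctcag

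Of the 10 lost sites with the highest -log10 q, 4 held the AP-1 motif and 0 of the 10 gained sites did. The 4 lost sequences are printed because they show the AP-1 letters TGANTCA in place. The site upstream of Tnfrsf21 held 3 matches within 200 bases.
Nedd9 intron, lost, chr13:41527259-41527458: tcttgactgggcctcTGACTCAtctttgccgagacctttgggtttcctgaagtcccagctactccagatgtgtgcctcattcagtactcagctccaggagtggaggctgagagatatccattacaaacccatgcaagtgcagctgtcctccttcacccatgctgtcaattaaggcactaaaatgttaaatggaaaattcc
Fam135b intron, lost, chr15:71533573-71533772: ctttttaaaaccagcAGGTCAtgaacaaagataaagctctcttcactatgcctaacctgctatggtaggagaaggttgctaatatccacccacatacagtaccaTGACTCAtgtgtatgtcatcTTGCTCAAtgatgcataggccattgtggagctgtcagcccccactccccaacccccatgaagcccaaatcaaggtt
BC018507 upstream, lost, chr13:70852233-70852432: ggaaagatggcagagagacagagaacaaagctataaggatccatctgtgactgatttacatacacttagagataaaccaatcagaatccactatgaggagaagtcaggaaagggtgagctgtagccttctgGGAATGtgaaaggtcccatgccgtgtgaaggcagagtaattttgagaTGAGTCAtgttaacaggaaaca
Tnfrsf21 upstream, lost, chr17:43127042-43127241: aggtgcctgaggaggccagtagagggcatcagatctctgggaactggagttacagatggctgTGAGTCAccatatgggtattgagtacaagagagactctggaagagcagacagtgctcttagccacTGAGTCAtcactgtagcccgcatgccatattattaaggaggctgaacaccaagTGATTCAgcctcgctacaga

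The HY culture had fewer peaks at D8 than at D0, and lost sites outnumbered gained sites. Of the 47794 D8 peaks, 12202 were gained, 25.5% (95% interval 25.1 to 25.9), and 35592 were kept. Of the 76164 D0 peaks, 43604 were lost, 57.3% (56.9 to 57.6), and 32560 were kept. By the summit rule 13291 D8 peaks (27.8%) and 46512 D0 peaks (61.1%) had no counterpart. The D8 library was the shallower. The background rate, which is the pileup of tags at an average position and is proportional to depth, was 0.708 tags at D0 and 0.494 at D8, a ratio of 0.698. The lowest summit pileup, the number of tags overlapping the summit, was 5 at D0 and 4 at D8. The median was 15 tags at D0 and 13 at D8, and the order turned when pileup was divided by the background rate (scaled pileup), with 21.2 at D0 and 26.3 at D8. If their pileup was scaled to the D8 depth without any other change, 42880 of the lost sites (98.3%) still had at least 4 tags, 36098 (82.8%) at least 5 and 13511 (31%) at least 10. The lowest D0 pileup of 5 nearly fixed the first share in advance, and only the lowest D8 peaks had 4 tags. The lowest D8 decile of -log10 q had a median of 5 tags. Local background and the calling threshold were not applied. These shares therefore do not say how many lost sites would be called at the D8 depth. With both lists shortened to the same number of strongest peaks, 34.7% of D8 peaks (16570) were gained and 41.1% of D0 peaks (19666) were lost. The part of depth in these counts was not tested further.

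Gained and lost sites were mostly weak peaks. The median summit pileup was 10 tags at gained sites (interquartile range 7 to 15) and 14 at kept D8 sites, and it was 11 at lost sites (8 to 16) and 28 at kept D0 sites. Median widths were 181 bp and 262 bp at D8 and 199 bp and 508 bp at D0, in the same order. Peaks were ranked within each list by -log10 q, the strength that the authors' peak caller gave, and split into 10 equal groups. The share of gained sites went from 41.7% in the weakest group to 3.45% in the strongest, and the share of lost sites from 88.1% to 3.45%. Few unmatched peaks lay just beside a peak of the other day. A gap of at most 200 bp was found for 660 gained sites (5.41%) and 832 lost sites (1.91%), and the median gap was 5407 bp and 11084 bp.

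**Figure D1:**
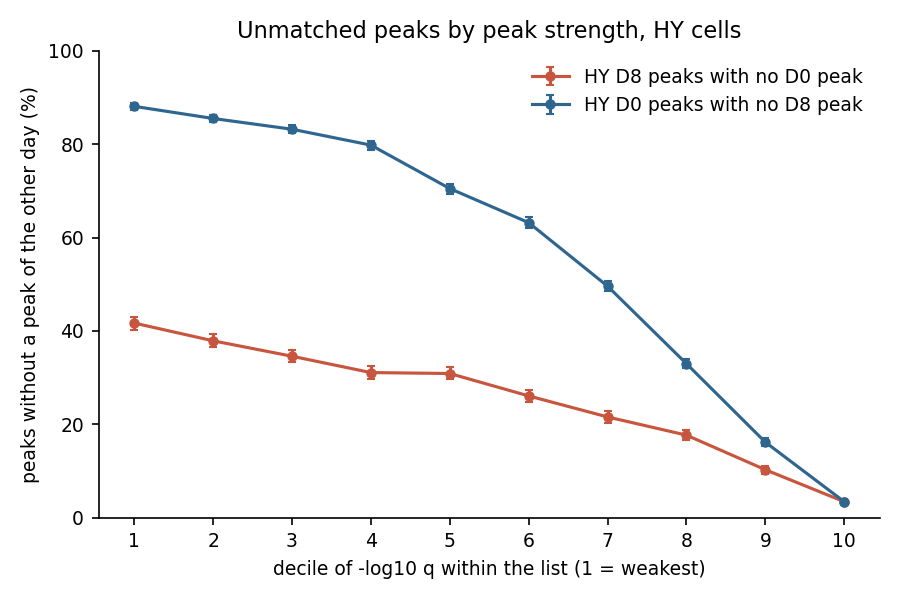
Share of HY peaks without a peak of the other day (y axis, percent) against the decile of -log10 q within the list (x axis, 1 the weakest and 10 the strongest); points are D8 peaks (red) and D0 peaks (blue) and bars are 95% Wilson intervals. The D8 share declines from 41.7% to 3.45% and the D0 share from 88.1% to 3.45%.

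Promoters were largely kept, and the turnover lay in introns and between genes. A peak was assigned to a promoter when its centre lay no more than 1000 bp before or 100 bp past a GENCODE transcription start site (TSS). Promoter peaks made up 6.26% of gained sites (764 of 12202) and 33.5% of kept D8 sites, and 6.78% of lost sites (2958 of 43604) and 31.3% of kept D0 sites. Introns held 50.5% of gained sites (49.7 to 51.4) and 44.3% of lost sites (43.8 to 44.8). Intergenic sequence held 38.5% of gained sites (37.7 to 39.4) and 44.8% of lost sites (44.4 to 45.3). Read the other way, 6.02% of the 12686 D8 promoter peaks were gained, compared with 35.4% of intronic and 31% of intergenic D8 peaks. Of the 13156 D0 promoter peaks 22.5% were lost, compared with 64.8% of intronic and 66.5% of intergenic peaks. Promoter peaks were also the stronger ones. They made up 10.4% of the weakest and 69.5% of the strongest decile of -log10 q at D8, and 8.44% and 53.4% at D0. Whether promoters were kept more often than other peaks of equal strength was not tested. The median distance to the nearest TSS was 13108 bp at gained sites and 3482 bp at kept D8 sites, and 15622 bp at lost sites and 4218 bp at kept D0 sites. Between 10 and 50 kb from a TSS lay 39.5% of gained and 38.4% of lost sites, and over 100 kb away lay 7.26% and 10.1%. Median GC content was 49.3% at gained, 48.8% at lost and 55.2% at kept D8 sites. The shares were similar across the 19 chromosomes, from 21.9% gained on chr11 to 29.1% on chr12 and from 52.6% lost on chr7 to 61.6% on chr13.

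**Figure D2:**
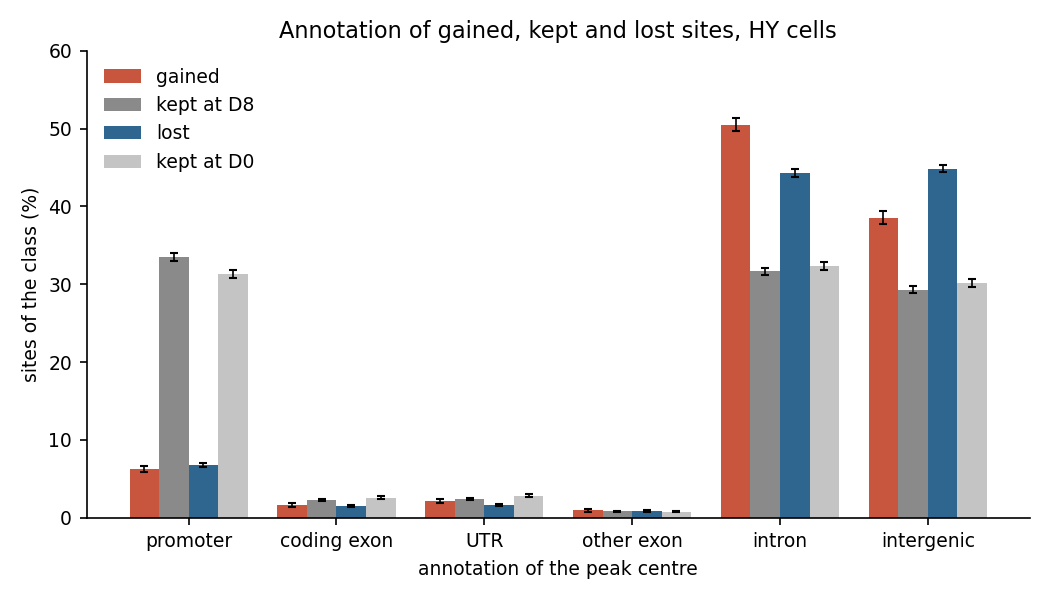
Share of each class of HY sites (y axis, percent) by the annotation of the peak centre (x axis) for gained, kept at D8, lost and kept at D0 sites; bars are shares and whiskers 95% Wilson intervals. Promoters hold 6.26% of gained and 6.78% of lost sites but 33.5% and 31.3% of kept sites.

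Sites kept on both days were compared by their summit pileup in multiples of each library's background rate, called scaled pileup here, so that depth was taken out. Overlapping D0 and D8 peaks formed 32378 clusters. The median log2 ratio of D8 to D0 scaled pileup was -0.18, or -0.69 without the scaling. At D8 1707 clusters (5.27%) were more than 2-fold higher and 5564 (17.2%) more than 2-fold lower. Promoter clusters differed little, with a median of 0.02 over 10648 clusters, 2.13% of them more than 2-fold higher and 6.06% lower. Intronic clusters had a median of -0.34 and intergenic clusters of -0.40, with 22.1% and 25% more than 2-fold lower.

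The kept site with the highest D8 to D0 ratio lay 23473 bp upstream of Ppp2r5a, which encodes a regulatory subunit of protein phosphatase 2A. Its pileup was 5 tags at D0 and 43 at D8, a 12.3-fold higher scaled pileup, and WT cells had 12 and 40 tags. A site at the Nipsnap1 promoter, 108 bp upstream of the TSS, went from 6 to 43 tags (10.3-fold) and had no WT peak at D0 and 43 tags at D8. An intronic site of Slc12a7, a potassium-chloride cotransporter gene, went from 5 to 36 tags, with 7 and 27 in WT. The remaining sites of the 5 highest lay 46088 bp upstream of Phf17 (9 and 65 tags) and near 9030625A04Rik (7 and 48 tags). At the other end, a site 47509 bp downstream of the TSS of Sdc3, a syndecan gene, went from 67 tags to 5, a 9.36-fold lower scaled pileup, with 40 tags and no peak in WT. Sites in Nr6a1 (48 and 4 tags), Leprel1 (60 and 5) and Slc37a1 (70 and 6) were 8.15-fold to 8.38-fold lower. Of the 5 highest and 5 lowest kept sites 0 had the opposite direction in WT cells. They were chosen for their ratio, so their folds are a description.

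The 10 strongest gained sites had 48 to 71 tags at D8, no D0 peak in HY cells and no D0 peak in WT cells. All 10 had a WT D8 peak, with 31 to 66 tags. The strongest by -log10 q (54.9) was the intronic repeat of Myh10, a non-muscle myosin gene, with 56 tags and 54 in WT D8. A site 52734 bp upstream of Ppp2r5a had 71 tags and 66 in WT D8. A site 7042 bp upstream of 3930402G23Rik had 61 tags and 45 in WT D8. Introns of Acer2, a ceramidase gene, and Adcy5, an adenylyl cyclase gene that feeds the cAMP pathway, held sites of 57 and 58 tags, with 52 and 61 in WT D8. A site 11584 bp downstream of the TSS of G6pc, the catalytic subunit of glucose-6-phosphatase, had 55 tags and 41 in WT D8. Of the other 4, 3 lay near Cldn24 (54 tags) and in introns of Wdr67 (50) and Anks1b (48).

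The 10 strongest lost sites had 47 to 68 tags at D0 and no D8 peak in HY cells. All 10 had a WT D0 peak, of 26 to 48 tags, and 9 had no WT D8 peak. The strongest, with a -log10 q of 60.4, lay in an intron of Nedd9, a scaffold gene of focal adhesions, and had 59 tags and 33 in WT D0. An intronic site of Heg1, 54606 bp upstream of the nearest coding TSS (Muc13), had 65 tags, with 34 in WT D0 and 8 in WT D8. It is the exception among the 10. Intronic sites of Fam135b (62 tags), Syt13 (68), Cap2 (47) and Otud7b (48) were also lost. So were distal sites near BC018507 (65 tags), Tnfrsf21 (47), Tacc1 (60) and Klf6 (63), the last at 168759 bp from the TSS.

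The HY turnover was compared with WT cells, which the rule did not use. Of the gained sites 6007 (49.2%, 48.3 to 50.1) had a WT peak only at D8, 498 (4.08%) only at D0, 799 (6.55%) on both days and 4898 (40.1%) on neither. Of the lost sites 24844 (57%, 56.5 to 57.4) had a WT peak only at D0, 323 (0.741%) only at D8, 1927 (4.42%) on both days and 16510 (37.9%) on neither. Among sites with a -log10 q of at least 5, 70.3% of 6409 gained sites had a WT peak only at D8 and 70.2% of 26881 lost sites only at D0, and 18.9% and 23.2% had none. The sites without any WT peak were weak, with a median of 7 tags for gained and 9 for lost sites. Classed in the same way, 9824 WT D8 peaks (24.4%) were gained and 42324 WT D0 peaks (60.7%) lost. Whether the genotypes differ was not tested, since each culture gave 1 library a day.

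Motif letters differed between gained and lost sites. The C/EBP letters TTGCNNAA, with N any base, were searched within 100 bp of each summit on both strands, and so were AP-1 (TGANTCA), EBF (CCCNNGGG), TEAD (GGAATG), RUNX (TGTGGT), CREB (TGACGTCA) and the nuclear receptor element AGGTCA. The other 4 motifs were NFI (TTGGC, any 5 bases, then GCC), CTCF (CC, any 3 bases, AGG, any base, GGC), the glucocorticoid receptor element GR (GNACA, any 3 bases, then TGTNC) and DR1, the element bound by PPARG with RXR (AGGNCA, any base, AGGNCA again). A DR1 match that reads AGGTCA also counts as the receptor element. Windows of the same length 1000 bp away that touched no peak gave the background. A match is a description of letters and not a bound site.

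C/EBP letters lay at 23.8% of gained summits (23 to 24.5) and at 10.1% of kept D8, 9.01% of lost and 9.59% of kept D0 summits, with 7.98% in the windows away from gained sites. The share at gained sites was 2.98 times its background. NFI letters were rarer and had a higher ratio, at 2.16% of gained summits and 0.403% away (5.34 times), but they lay at 1.91% of kept D8 summits too. AP-1 letters showed the reverse. They lay at 29.9% of lost summits (29.5 to 30.3), 18.8% of kept D0, 16.8% of kept D8 and 7.58% of gained summits, against 5.3% to 5.6% in the windows away. TEAD and RUNX letters were also more frequent at lost sites, at 19.6% and 21.5%, than at gained sites, at 12.5% and 13.7%. For RUNX the gained share was below its background of 15.7%. The receptor element was found at 19.2% of gained and 13.6% of lost summits, with 12.4% and 12.6% away. DR1 was rare, at 0.787% of gained and 0.303% of lost summits (0.51% and 0.444% away). GR was found at 0.877% and 0.406% (0.324% and 0.367% away), or 2.71 and 1.11 times its background. EBF letters did not separate gained from kept D8 sites, at 12% (2.61 times the background) and 12.3%, but were less frequent at lost sites, at 7.73%. CTCF and CREB letters were rare at gained sites, at 2.21 and 1.39 times their background, against 8.39 and 8.38 times at kept D8 sites. CTCF lay at 1.34% of gained and 6.36% of kept D8 summits, while lost and kept D0 summits were nearer to each other, at 5.12% and 6.62%. CREB lay at 0.148% of gained and 1.19% of kept D8 summits, and at 0.436% of lost and 1.36% of kept D0 summits. Away from promoters the CREB shares were lower at kept sites, 0.562% at D8 and 0.711% at D0, and 0.122% at gained and 0.381% at lost sites.

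**Figure D3:**
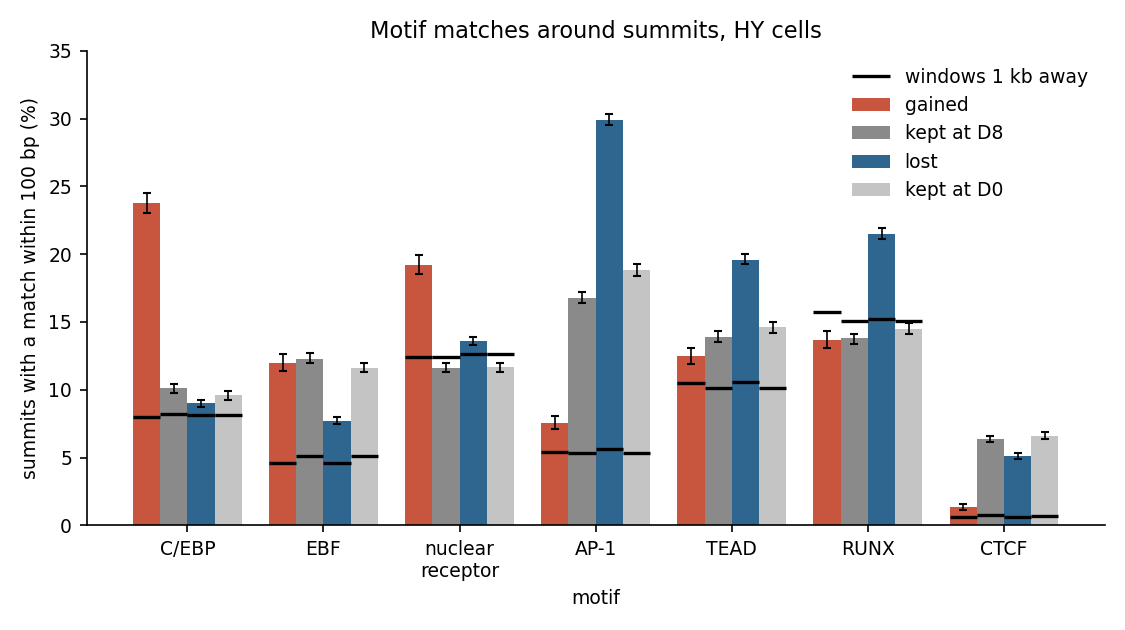
Share of HY summits with a match within 100 bp (y axis, percent) for 7 motifs (x axis) in gained, kept at D8, lost and kept at D0 sites; whiskers are 95% Wilson intervals and black lines the share in windows 1 kb away that touch no peak. C/EBP stands out at gained sites (23.8%) and AP-1 at lost sites (29.9%).

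Read from the motif side, 44.7% of the 6484 D8 peaks with C/EBP letters were gained, compared with 22.5% of those without. Of the 6916 D8 peaks with AP-1 letters 13.4% were gained, compared with 27.6% of those without. Of the 19170 D0 peaks with AP-1 letters 68% were lost, compared with 53.6% of those without, and of the 632 with CREB letters 30.1% were lost, compared with 57.5%. Of the 4387 with CTCF letters 50.9% were lost, compared with 57.6%. The pattern was present at HY sites that WT cells did not share. Gained sites with a WT D8 peak held C/EBP letters in 26.2% and those without in 20.7%. Lost sites with a WT D0 peak held AP-1 letters in 30.5% and those without in 29%. Away from promoters C/EBP letters lay at 24.1% of gained and 12.5% of kept D8 summits, and AP-1 letters at 30.9% of lost, 25.2% of kept D0 and 23% of kept D8 summits. There 48.3% of D8 peaks with C/EBP letters were gained, compared with 29.5% of those without, and 69% of D0 peaks with AP-1 letters were lost, compared with 62.7% of those without, a smaller difference than over all peaks. Of the 314 D0 peaks with CREB letters outside promoters 49.4% were lost, compared with 64.6% of those without.

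For genes, sites were counted when their summit lay within 50 kb of any TSS of a protein-coding gene, which gives genes with many start sites wider windows, and neighbouring genes share sites. Of 21410 coding genes, 9478 (44.3%) had a gained site and 16843 (78.7%) a lost site. The median gene had 0 gained and 2 lost sites, and 1972 genes (9.21%) had more gained than lost sites. The genes with most gained sites were led by the fatty acid binding protein cluster on chr3, where Fabp12 had 15, Fabp9 had 13 and Fabp4 had 12, many of them the same sites. Then came 3930402G23Rik (14), Por, the electron donor of cytochrome P450 enzymes (14), Cd36, the fatty acid translocase (13), Rreb1 (12), Zbtb20 (12), Dlc1 (11) and Kif1b (11). Fabp12, Fabp9, Fabp4 and Cd36 had 3, 1, 1 and 1 lost sites, while Zbtb20 and Dlc1 had 16 each. The genes with most lost sites were Kalrn (26), Mical2 (24), Col14a1 (21), Arhgef10l (20), Pde4d (20), Cald1 (19), Fyn (19), Myh9 (19), Mylk (19) and Hmcn2 (18). These counts favour genes with many start sites, of which Kalrn had 14, Cald1 11 and Arhgef10l 9. Mical2 oxidises actin, Cald1 encodes caldesmon, Myh9 a non-muscle myosin, Mylk the myosin light chain kinase, and Kalrn and Arhgef10l are guanine nucleotide exchange factors. Gained sites near these 10 numbered 0 at Hmcn2 to 8 at Pde4d.

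At promoters, 10150 coding genes (47.4%) had a kept site, 261 (1.22%) had a gained and no kept site, and 1092 (5.1%) a lost and no kept site. In 23 genes both a gained and a lost site were counted. The strongest promoter gained belonged to Adig, adipogenin, an adipocyte membrane protein gene, with no D0 peak and 48 tags at D8, 53 bp upstream of the TSS, and 49 tags in WT D8. The promoter of Rxrg, the retinoid X receptor gamma and a partner of PPARG, had 31 tags at D8 and none called at D0, with 6 and 27 tags at WT D0 and D8. Cd36 had 42 tags 28 bp downstream of a TSS, with 40 in WT D8. O3far1, the receptor for long-chain omega-3 fatty acids, had 33, and Acox2, a peroxisomal acyl-CoA oxidase, had 34. The others were 4931406C07Rik (45 tags), Gbp10 (30), E230028L10Rik (28), Gnb5 (24) and Syn2 (28). All 10 had a WT D8 peak, of 15 to 49 tags, and 9 had no WT D0 peak.

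The strongest promoters lost were those of Wdr17 (45 tags at D0), Fam92b (53), Ctla2b (34), 5730559C18Rik (38), Gpr123 (37), Tle6 (65), Serpinb6b (37), AI836003 (42), Pla2g4a (32) and Il31ra (37). Pla2g4a encodes cytosolic phospholipase A2, which releases arachidonic acid, and Il31ra a cytokine receptor subunit. All 10 had a WT D0 peak, of 16 to 35 tags. Tle6 and Pla2g4a also had a WT D8 peak, of 12 and 11 tags, and the other 8 had none.

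Genes of adipocyte identity and lipid storage together had more gained than lost sites around them. The 26 genes of this list had 143 gained and 95 lost sites, so that 60.1% of their changed sites were gained (53.7 to 66.1), compared with 23.3% (22.9 to 23.7) of the changed sites near all coding genes, 8795 gained and 28984 lost. All 26 genes had a gained site and 25 a lost site (100% and 96.2%, beside 44.3% and 78.7% of all coding genes). At 14 of the 26 gained sites were more numerous than lost ones, and at 10 lost sites were more numerous, beside 1972 and 14279 of all 21410 coding genes. Cd36 (13 gained, 1 lost) and Fabp4 (12 and 1) had the widest margins, while Adipoq had 3 and 6 and Lipe 2 and 5. The median gene had 5 gained and 3 lost sites, against 0 and 2 over all genes. Promoters of 8 genes had a peak only at D8, 13 kept theirs, 1 (Gpam) lost it and 4 had none. Over all coding genes 1.22% of promoters were gained, 47.4% kept and 5.1% lost. Among the 13 kept promoters the median log2 ratio of scaled pileup was 0.86 (0.76 for the 12 whose highest peaks of the 2 days overlapped), compared with 0.05 over 8754 coding genes with a promoter peak on both days. Gpam encodes a glycerol-3-phosphate acyltransferase, and its promoter had 23 tags at D0 and no peak at D8.

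Promoter values are the highest peak over all start sites of a gene on each day. Pparg, the nuclear receptor that drives adipogenesis, had peaks at different start sites. The highest was 12 tags at D0 and 39 at D8 (17 and 78.9 scaled), and the summits lay 60662 bp apart, so these are not values of 1 promoter. That of Lipe, hormone-sensitive lipase, went from 31 to 67 tags (43.8 to 136 scaled), Plin4, a lipid droplet coat protein, from 41 to 71 (57.9 to 144), and Lpl, lipoprotein lipase, from 29 to 53 (41 to 107). Cebpa, a C/EBP factor gene, was already high and had 55 and 61 tags (77.7 to 123 scaled). Promoters without a D0 peak had 46 tags at D8 for Fabp4, the adipocyte fatty acid binding protein, 43 for Cidec, a lipid droplet fusion protein, 29 for Plin1, the perilipin of the adipocyte droplet, and 25 for the adiponectin gene Adipoq. WT D8 had 46 tags at the Fabp4, 42 at the Cidec, 28 at the Plin1 and 26 at the Adipoq promoter, and WT D0 had no peak at any of the 4. The gained sites at Fabp4 sat close together. They included 8 between 7235 bp downstream and 6713 bp upstream of its TSS. At Cd36, 11 of 13 gained sites had a WT D8 peak and 0 had a WT D0 peak.

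Genes of the preadipocyte and of the extracellular matrix showed the opposite balance. The 21 adipose progenitor genes had 13 gained and 96 lost sites, 11.9% gained (7.1 to 19.3). A gained site lay near 8 of the 21 (38.1%), close to the 44.3% of all coding genes, and a lost site near 20 (95.2%, beside 78.7%). Lost sites outnumbered gained ones at 20 of the 21, and at 14279 of all 21410 coding genes. The share gained was 3.03% within 10 kb and 33.8% with both peak lists shortened to the same length, where that of all coding genes was 49%. Promoters of Ly6a (35 tags at D0), Cd34 (12) and Thy1 (32), surface markers of mesenchymal progenitors, were lost, and that of Pi16, also a progenitor marker, had a peak of 8 tags only at D8. Kept promoters included Pdgfrb, a growth factor receptor of progenitors and mural cells, with 65 and 17 tags (91.9 to 34.4 scaled), and Pdgfra with 52 and 37 (73.5 to 74.9 scaled). Nt5e went the other way, from 32.5 to 81 scaled.

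All 23 collagen and matrix genes had more lost than gained sites, 166 and 26 in all, 13.5% gained (9.41 to 19.1), beside 23.3% gained and 14279 of 21410 genes with more lost than gained sites over all coding genes. With both peak lists equally long the matrix share was 39.4% (43 of 109) and that of all coding genes 49%. Col5a1 had most lost sites (14) with 0 gained, and Col6a3 had most gained (7) with 8 lost. Promoters of the fibrillar collagen genes Col1a1 (51 tags at D0) and Col3a1 (32) and of the tenascin gene Tnc (8) had no peak at D8. The other 20 were kept, 19 of them measured on both days, with a median log2 ratio of scaled pileup of -0.52. Over all coding genes 47.4% of promoters were kept and 5.1% lost, with a median ratio of 0.05. Housekeeping genes kept 13 of 18, with a median of 0.15. Scaled pileup was 82 and 30.4 at Col1a2, 57.9 and 18.2 at the fibrillin gene Fbn1, 57.9 and 24.3 at the periostin gene Postn, and 96.1 and 48.6 at Thbs2. Loxl1, a lysyl oxidase family gene, went from 84.8 to 121, and Loxl2 had 56.5 and 56.7. The 18 genes of the SRF pathway and the contractile cytoskeleton had 30 gained and 153 lost sites, 16.4% gained (11.7 to 22.4), and all 18 had more lost than gained sites. With equally long lists 34.6% (36 of 104) were gained. Mkl1, an SRF coactivator, had 18 lost and 1 gained, and the promoter of Cnn1, smooth muscle calponin, had 31 tags at D0 and no peak at D8. Of the 18 promoters 15 were kept, 2 were lost and 1 had no peak, beside 47.4% of all coding genes and 13 of 18 housekeeping genes kept. The median log2 ratio over 12 of the contractile promoters was -0.26, beside 0.05 and 0.15.

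**Figure D4:**
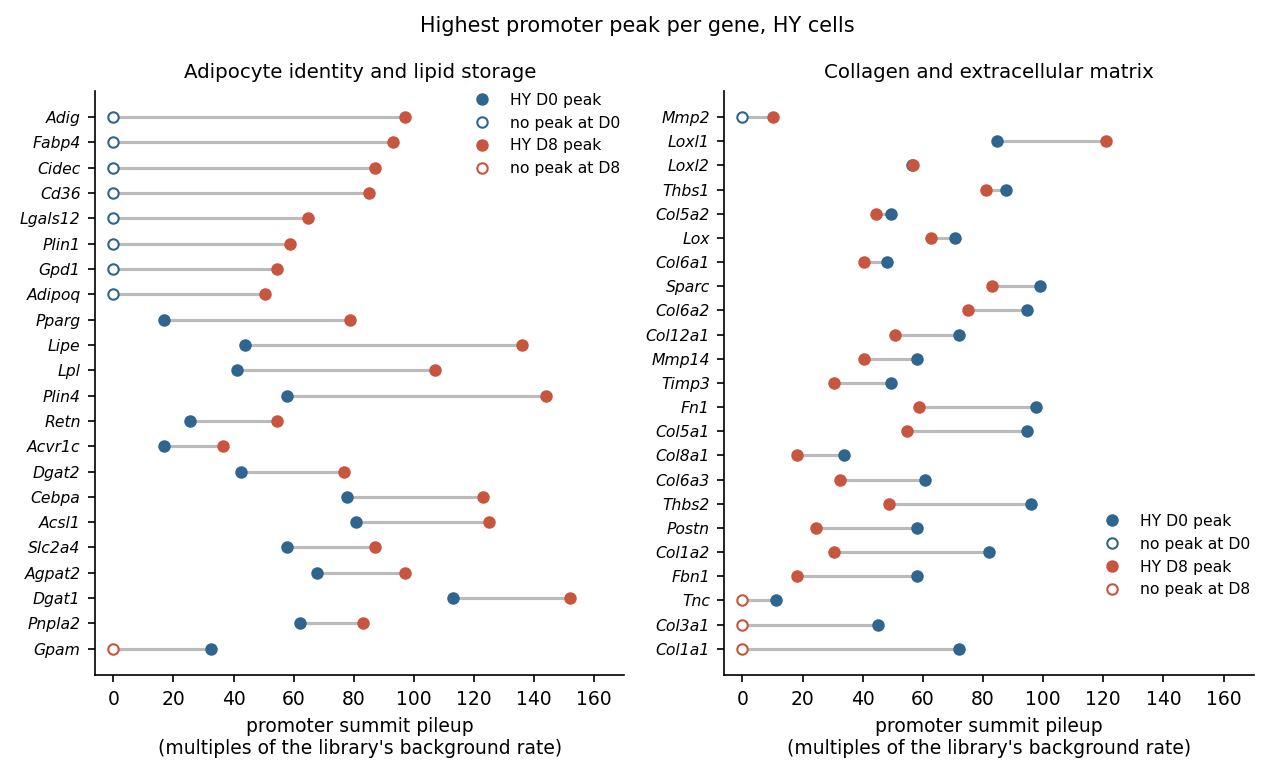
Highest promoter summit pileup of each gene at D0 (blue) and D8 (red) in multiples of the library's background rate (x axis), for adipocyte genes (left) and matrix genes (right); open circles at 0 mark no peak centred in the promoter (at Mmp2 the D0 peak was centred outside it), and genes with no such peak on either day are not drawn, and the peaks of the 2 days lie at different start sites in Pparg and Col6a3. Adipocyte genes lie higher at D8 except Gpam, and matrix genes lie lower at D8 except Mmp2, Loxl1 and Loxl2.

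In the reported setting, metabolic lists lay between these extremes. Over the 6 settings the highest share of the fatty acid synthesis list was 81.3% and that of the adipocyte list 80.5%. Fatty acid synthesis genes had 49 gained and 42 lost sites, 53.8% gained (43.7 to 63.7), led by the stearoyl-CoA desaturase gene Scd1 with 9 gained and 4 lost. The highest promoter peaks of Acly, ATP citrate lyase, were 49.5 at D0 and 142 at D8 scaled and lay 3396 bp apart. The promoter of the ChREBP gene Mlxipl went from 11.3 to 54.6, but that of the fatty acid elongase gene Elovl6 from 57.9 to 26.3 and that of the acetyl-CoA carboxylase gene Acacb from 83.4 to 68.8. The median log2 ratio over 12 promoters of this list was 0.36. Adipogenic transcription factor genes had 60 gained and 76 lost sites, 44.1% gained (36 to 52.5), led by Zfp423 with 10 gained and 4 lost and highest promoter peaks of 11.3 and 58.7 scaled that lay 156187 bp apart, and the median log2 ratio over 19 promoters was 0.26. Insulin signalling and glucose metabolism genes had 73 and 110 sites, 39.9% (33.1 to 47.1), with 10 gained and 2 lost at Tbc1d4, a GTPase-activating protein that acts in glucose uptake. Fatty acid oxidation genes had 33 and 52 sites, 38.8% (29.2 to 49.5), with 7 gained and 0 lost at Pdk4, a kinase that turns pyruvate dehydrogenase off. Nuclear genes of oxidative phosphorylation had 30 and 61 sites, 33% (24.2 to 43.1), and kept 20 of 21 promoters, beside 47.4% of all coding genes and 13 of 18 housekeeping genes. Their median log2 ratio was 0.14, beside 0.05 and 0.15. Gene by gene, gained sites were more numerous at 9 fatty acid synthesis genes and lost ones at 6. These counts were 7 and 11 for adipogenic factor genes, 9 and 12 for insulin genes and 4 and 15 for oxidation genes. For oxidative phosphorylation genes they were 3 and 13, and for all 21410 coding genes 1972 and 14279. With both peak lists shortened to the same length, gained sites outnumbered lost ones near each of these 5 lists, at 81.3%, 74.3%, 59.6%, 66.1% and 62.9% in the order given, beside 49% for all coding genes. Within 100 kb the fatty acid synthesis share was 43.1%.

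**Figure D5:**
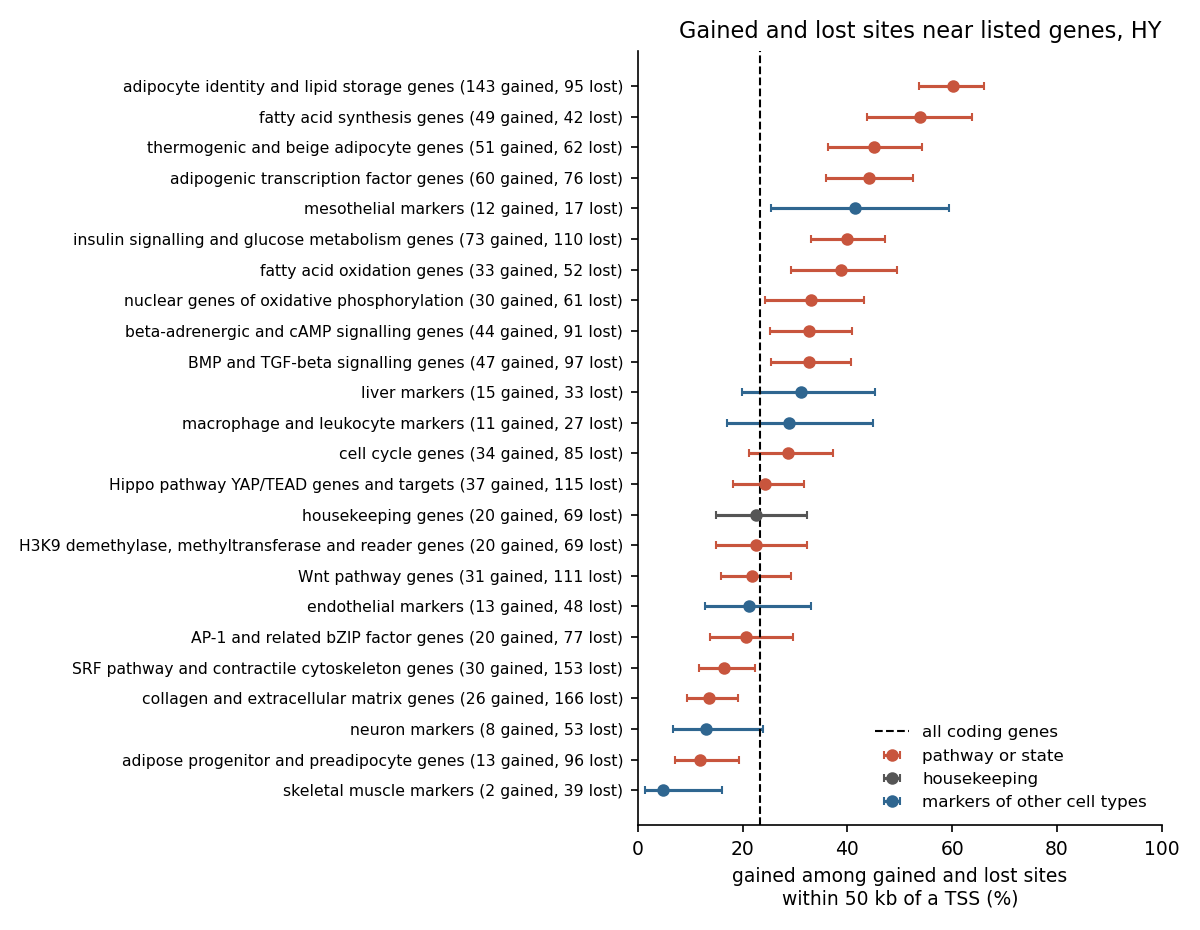
Gained sites as a percent of gained and lost sites within 50 kb of a TSS (x axis) for 24 gene lists (y axis, with counts), with 95% Wilson intervals; the dashed line is the share near all coding genes, 23.3%. Adipocyte genes are highest (60.1%) and adipose progenitor genes (11.9%) and skeletal muscle markers (4.88%) lowest.

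The 22 thermogenic and beige adipocyte genes had 51 gained and 62 lost sites, 45.1% gained (36.3 to 54.3), and 19 of 22 had a gained site and 19 a lost site (86.4% each, beside 44.3% and 78.7% of all coding genes). This balance turned to more gained than lost sites with both peak lists shortened to the same length (60 of 87, 69%) and within 10 kb of a TSS (56.2%). Within 50 kb and with the full lists, lost sites were more numerous at 13 of the 22 genes and gained ones at 6. Over all 21410 coding genes these counts were 14279 and 1972. The gene with most gained sites was Kcnk3, a potassium channel gene of brown and beige fat, with 9 gained and 5 lost and a highest promoter peak of 7 and 27 tags (9.89 and 54.6 scaled), with the summits 730 bp apart and no overlap. Promoters had a peak only at D8 in Ppargc1a (15 tags), Prdm16, the beige fate factor (12), Adrb3, the beta-3 adrenergic receptor (13), and Cpt1b, the muscle-type carnitine palmitoyltransferase (18). That of Ebf2 had 15 tags at D0 and no peak at D8. Of the other promoters 10 were kept (45.5% of the list, beside 47.4% of all coding genes) and 7 had no peak. Over all coding genes 1.22% of promoters were gained and 5.1% lost. The promoters of the defining genes Ucp1, Dio2 and Cox8b had no peak in either HY library, so the beige label of the D8 cells could not be checked at these promoters.

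Ucp1, the uncoupling protein of thermogenic fat, had 3 gained and 0 lost sites. They lay 4854 bp upstream (11 tags, 10 in WT D8), 19778 bp downstream (12 tags, 13 in WT D8) and 42841 bp downstream of the TSS (31 tags, 24 in WT D8), the last in the promoter of another gene. A kept site 11721 bp upstream had 31 tags at D0 and 38 at D8. Ppargc1a, or Pgc1a, the coactivator of mitochondrial biogenesis, had 2 gained and 4 lost sites. Its gained promoter peak at 17 bp upstream had 15 tags and 14 in WT D8. Ppargc1b, or Pgc1b, had 5 gained and 6 lost sites. The strongest gained site lay 37733 bp upstream (39 tags, 43 in WT D8), and a further one 41736 bp upstream had 18 tags and 17 in WT D8. A site 5417 bp downstream of its TSS had 38 tags at D0 and no D8 peak, while WT cells had 28 and 19 tags there. Its promoter had 29 and 23 tags, 41 and 46.5 scaled.

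Ppara, a nuclear receptor of fatty acid oxidation, had 6 gained and 2 lost sites. The strongest gained site lay 17545 bp upstream (45 tags, 33 in WT D8) and its promoter had 45 tags on both days (63.6 and 91.1 scaled). Cidea, a lipid droplet protein of thermogenic fat, had 1 gained and 3 lost sites and a promoter of 7 and 13 tags (9.89 and 26.3 scaled). Prdx5, near which the study's ChIP-qPCR had a control region, had 2 gained and 3 lost sites and a promoter of 65 and 40 tags (91.9 and 81 scaled). These values cover its 50 kb window and its promoter, and not that region alone. Kdm3a itself, which carries the mutation, had 0 gained and 2 lost sites. Its promoter had 84 tags at D0 and 60 at D8, 119 and 121 scaled. Over 15 genes of H3K9 demethylases, methyltransferases and readers, 20 sites were gained and 69 lost, 22.5% (15 to 32.2), close to the 23.3% of all genes, and all 15 promoters were kept, beside 47.4% of all coding genes and 13 of 18 housekeeping genes.

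Markers of other cell types were checked at their promoters. None of the 16 liver genes, 0 of 11 macrophage and leukocyte genes and 0 of 6 mesothelial genes had a kept promoter peak, and promoters without any HY peak numbered 16, 9 and 5. Over all 21410 coding genes 9930 promoters had no peak. Of the 12 endothelial genes 9 had no promoter peak and of the 14 skeletal muscle genes 9 had none. Neuron markers had more promoter peaks, with 7 of 15 genes without one, 3 kept (Grin1, Gria2 and Camk2a), 4 lost (Syt1, Rbfox3, Gad1 and Eno2) and 1 gained (Syn2). Near the muscle genes 2 sites were gained and 39 lost, 4.88% gained (1.35 to 16.1), and near the mesothelial genes 12 and 17, 41.4% (25.5 to 59.3). These shares rest on few sites. That of the muscle genes was 16.2% within 100 kb and 22.2% with lists of the same length, and that of the mesothelial genes 0% (0 of 5) within 10 kb and 66.7% when both lists were equally long. The part of other cells in the shares given above was not tested. The lists were chosen with earlier results of these data known, and a list's share beside that of all genes is a description of these 2 libraries.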

How the data were processed

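Nuclei of im-scWAT cells were tagged and made into libraries with a commercial ATAC-seq kit, and the authors deposited separate MACS narrowPeak lists, with no pooling of libraries. The submitters' processing notes name Bowtie2, SAMtools, Picard, deepTools and mm9, and the study's ChIP-seq methods, which it also applied to ATAC-seq, add Trimmomatic and MACS3. Versions, the calling threshold and any shift for the Tn5 offset are not given in the sources used here; an unshifted end moves peak edges by a few bases. The deposited fold column is the ratio of summit pileup to local background after the same small constant was added to each. It is not normalised between libraries. The deposited -log10 p and -log10 q columns are the authors' peak caller's values. The deposited score column was not used. Read counts were not used here. The study states an approximate number of reads per sample, and the exact depth of each library is unknown.

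Summit pileup and background were solved per peak from the fold and -log10 p (within 0.002 for 100% of peaks), and the lowest background of a list gave its relative depth. Peaks on chr1-19 were classed by an overlap of 1 bp and by summit, and annotated with GENCODE on NCBIM37 (mm9). The scripts were tested on simulated peak lists. Named sites were the 10 gained and 10 lost peaks with the highest -log10 q in the same class by both rules, and the 5 highest and 5 lowest kept clusters with at least 20 tags in the higher library. Named genes were the 10 promoters gained and lost with the highest -log10 q and no kept promoter site, the 10 genes with most gained or lost sites within 50 kb, list genes with most such sites (a few sites and genes that these rules name are not reported here), Kdm3a and the genes the study followed. Further list genes were chosen after their values were seen, as familiar members or exceptions. Of the listed symbols Cebpd, Spi1 and Map2 matched no gene. The members and lists were chosen with earlier results of these data known. Peaks off chr1-19 (1830 at D0 and 1170 at D8) entered no class. Alternatives changed the overlap rule, -log10 q minimum, list length, promoter window, TSS set, gene window, depth scaling and motif window. Python 3.11.15, pandas 2.3.3, numpy 2.4.6, scipy 1.17.1, pysam 0.24.0, matplotlib 3.10.9 and samtools 1.23.1 were used.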

Additional observations from a re-analysis of the deposited data

Results flagged for a closer look

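A group of HY sites went the opposite way from WT cells. There were 498 sites gained in HY cells that had a peak only at D0 in WT cells, with a median of 7 tags, and 323 sites lost in HY cells that had a peak only at D8 in WT cells, with a median of 10 tags. With a -log10 q of at least 5 there were 122 of each. They are listed because the 2 cultures moved in opposite directions, and the difference was not tested.

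The sex chromosomes were outside the comparison. HY D8 cells had 1013 peaks on chromosome X, of which 237 (23.4%) were gained, and HY D0 cells had 1627, of which 939 (57.7%) were lost. On chromosome Y there were 6 peaks at HY D8 and 7 at HY D0, with 0 gained and 2 lost, and 1 in each WT library.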

How the results depend on the processing

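No paired analysis was possible because each group held 1 library. Values moved beyond their counting interval as follows. Gained and lost shares were 27.8% and 61.1% by summit, 29% and 72.6% when 1 peak had to cover 50% of the other, 19.8% and 47.2% for peaks with a -log10 q of at least 5, 34.7% and 41.1% for lists of the same length, and 24.1% and 56.2% with 200 bp added to each side. Promoter shares of gained and lost sites were 7.23% and 7.29% by summit, 8.35% and 6.45% for lists of the same length, 13.5% and 13.2% with promoters widened to 2000 bp before and 1000 bp past the TSS, and 4.36% and 4.62% at coding transcripts only. Those of kept D8 sites were 36.2%, 44% and 29.6% under the last 3 of these and 40.3% with the -log10 q minimum. The median TSS distance of gained sites was 11973 bp for lists of the same length and 20566 bp with coding transcripts, and that of lost sites 17102 bp and 26198 bp, with 15326 bp by summit and 15994 bp with the -log10 q minimum. Genes with a gained site numbered 6112 with the -log10 q minimum, 3424 within 10 kb and 5900 as nearest gene, and genes with a lost site 9130 within 10 kb. The kept-site median was -0.69 unscaled and -0.23 by fold enrichment. Within 50 bp of the summit, C/EBP shares were 12.1% at gained, 3.8% at lost and 4.74% at kept D8 sites, and AP-1 shares 3.99%, 19.9% and 10.5%; by summit the AP-1 share at lost sites was 29.5%. The cause was not tested beyond the alternatives' construction. The remaining 19 comparisons stayed within their interval or within 1.5 times the count.

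Shares near listed genes were recomputed under 5 alternatives, all chosen after seeing the data. The adipocyte list ranged from 53% to 80.5% and all genes from 20.7% to 49%. Adipocyte, thermogenic, fatty acid synthesis and oxidation, oxidative phosphorylation, insulin, cAMP, adipogenic factor, BMP and TGF-beta, cell cycle and liver lists lay above all genes in 6 of 6 settings, the reported one included, and progenitor, matrix, contractile, endothelial, muscle and neuron lists in 0 of 6. The direction within a list did depend on the setting: with lists of the same length gained sites outnumbered lost ones near the thermogenic (69%), insulin (59.6%), fatty acid oxidation (66.1%), oxidative phosphorylation (62.9%), cAMP (59.8%), adipogenic factor (74.3%), Hippo (52.6%), AP-1 (51.3%), BMP and TGF-beta (61.7%), cell cycle (58.2%), macrophage (62.1%), mesothelial (66.7%) and liver (55.6%) lists. The matrix and contractile shares were then 39.4% and 34.6%. Progenitor shares ranged from 3.03% to 33.8%, Hippo from 15.6% to 52.6%, muscle from 3.85% to 22.2% and mesothelial from 0% to 66.7%. Medians of kept promoters over genes whose highest peaks of the 2 days overlapped, also chosen after seeing the data, were 0.76 for the adipocyte list, -0.51 for matrix, 0.37 for adipogenic factors and 0.05 for all genes. The lowest pileups in the lists were 4 and 5 tags, and weaker sites were not measured.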

Other observations

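Signalling and proliferation genes held intermediate shares of gained among gained and lost sites, beside 23.3% for all coding genes. With both peak lists shortened to the same length the share of all coding genes was 49%, and more sites were gained than lost near the BMP and TGF-beta (61.7%), cAMP (59.8%), cell cycle (58.2%), Hippo (52.6%), AP-1 (51.3%), liver (55.6%) and macrophage (62.1%) lists. BMP and TGF-beta genes had 47 gained and 97 lost sites, 32.6% (25.5 to 40.7), with 16 lost and 3 gained at Smad3, a transcription factor of the TGF-beta pathway. The promoter of Ltbp1, which stores latent TGF-beta in the matrix, had 52 tags at D0, and its highest D8 peak, of 8 tags, lay at another start site 173144 bp away. Beta-adrenergic and cAMP genes had 44 and 91 sites, 32.6% (25.3 to 40.9), with 8 gained and 20 lost at the phosphodiesterase gene Pde4d, 6 and 14 at Pde4b, and 6 and 3 at Prkar2b, a regulatory subunit of protein kinase A. Hippo pathway genes had 37 and 115 sites, 24.3% (18.2 to 31.7), or 15.6% for peaks with a -log10 q of at least 5, where all coding genes had 20.7%. They kept 15 of 18 promoters, beside 47.4% of all coding genes and 13 of 18 housekeeping genes. The median log2 ratio was -0.13 over 13 Hippo promoters, beside 0.05 and 0.15. The promoters of Tead2 (29 tags) and of the YAP target Ankrd1 (32 tags) had a peak only at D0. Wnt pathway genes had 31 and 111 sites, 21.8% (15.8 to 29.3). Wisp1, a secreted Wnt target, had 11 lost and 0 gained sites and a promoter of 56 and 9 tags.

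Genes of AP-1 and related factors had 20 gained and 77 lost sites, 20.6% (13.8 to 29.7), and kept 12 of 14 promoters, beside 47.4% of all coding genes and 13 of 18 housekeeping genes. Promoter tags at D0 and D8 were 84 and 71 for Jun and 85 and 70 for Fosl2, and the median log2 ratio of scaled pileup over 8 of these promoters was 0.24, beside 0.05 for all coding genes and 0.15 for housekeeping genes. Cell cycle genes had 34 and 85 sites, 28.6% (21.2 to 37.3). The promoter of the cyclin D1 gene Ccnd1 had 29 tags at D0 and no peak at D8, and the highest promoter peaks of the cell cycle factor gene E2f2, 34 and 12 tags, lay 8382 bp apart. Housekeeping genes had 20 and 69 sites, 22.5% (15 to 32.2). Neuron markers had 8 and 53 sites, 13.1% (6.8 to 23.8), and endothelial markers 13 and 48, 21.3% (12.9 to 33.1). Over the 6 settings the neuron share ranged from 10% to 41.4% and the endothelial share from 15.8% to 47.4%. That of all coding genes ranged from 20.7% to 49%. Near liver markers there were 15 and 33 sites, 31.2% (19.9 to 45.3), and near macrophage and leukocyte markers 11 and 27, 28.9% (17 to 44.8).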
